A study of Mus musculus with 12 samples.

Results

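Potassium channel genes were taken as all genes whose symbol in the platform annotation starts with Kcn, one or more letters and a number. Among 22180 genes with a probe set naming a single gene, 89 met this rule, on 96 probe sets; where a gene had several, its brightest probe set, by the mean of the 12 arrays, was used. Tissue was the aortic vessel of female mice of the outbred CD-1 stock, 12 in all, each measured on an Affymetrix gene array of its own. In the treated group, 6 mice received CM-695, a dual inhibitor of the deacetylase HDAC6 and the cyclic GMP-degrading phosphodiesterase PDE9, intraperitoneally at 80 mg/kg, 2 h and 1 h before sacrifice. The other 6 mice received saline, described as a single dose in the series design, against 2 doses of CM-695. All were perfused with buffered saline before the vessel was frozen, and their age is not stated. The study's title concerns heat shock protein 70 and thrombosis, and the labels state no question about potassium channels.

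Potassium channels set the resting membrane potential and repolarize excitable cells. In arterial smooth muscle, opening of these channels hyperpolarizes the cell, closes voltage-gated calcium channels and relaxes the vessel; the calcium-activated BK channel is activated downstream of cyclic GMP and its kinase. Voltage-gated (Kv), inward rectifier, tandem-pore and calcium-activated channels form the main structural classes, and auxiliary subunits alter their gating and traffic.

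Values are deposited log2 intensities after RMA, so 1 unit is a doubling of signal. They carry no detection calls, and probe sets of different genes bind with different strength, so a value was set only against the median of all probe sets on its array and never read as an order of expression between genes. The median of an array was 4.69 to 4.74, and any 2 arrays correlated at 0.957 to 0.977. Defining markers of the labelled tissue were present: 10 of 10 smooth muscle and 10 of 10 endothelial markers lay above the array median in vehicle mice. So did 11 of 11 cardiac muscle, 10 of 10 fibroblast, 8 of 8 adipocyte and 6 of 6 measured brown adipocyte markers, but 4 of 10 skeletal muscle markers. Some arrays stood apart. CM-695 mouse 2 had the highest smooth muscle marker mean (10.40) and the lowest adipocyte mean (9.24), CM-695 mouse 4 the highest neuron marker mean (6.05 against 4.27 to 5.35 in the other 11 mice), and CM-695 mouse 5 the highest liver marker mean (6.63 against 3.97 to 5.25).

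In vehicle aorta, 44 of the 89 genes (49.4%) lay above the array median on average, against 57.9% of all 22180 genes. In all 6 vehicle mice, 35 of the 89 (39.3%) lay above it, against 51.9% of all genes, and 36 of the 89 lay above it in none, as did 7940 of the 22180 genes. By class, the share was highest for KCNQ channels (3 of 3 genes) and calcium-activated SK and IK channels (3 of 4), and lowest for the EAG, ERG and ELK channels (1 of 8). Inward rectifiers had 8 of 14 genes above the median, Shaker-type Kv1 channels 5 of 8, electrically silent Kv subunits 5 of 10, Kv auxiliary subunits 6 of 12, tandem-pore channels 6 of 13, Shab, Shaw and Shal channels 3 of 7, and the BK and other Slo channels 3 of 8.

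**Figure D1:**
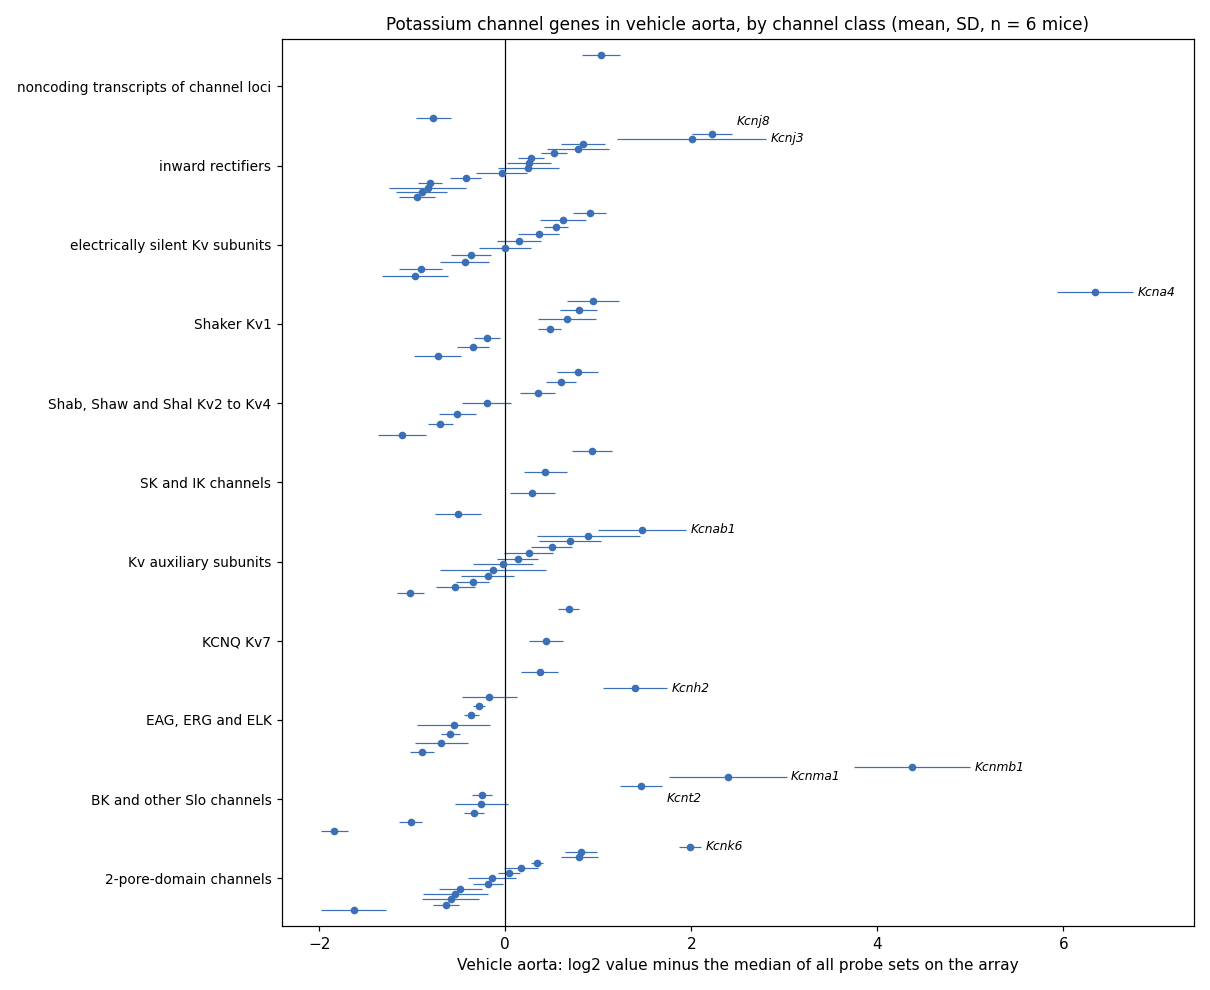
Each point is a potassium channel gene in vehicle aorta, plotted on the x axis as its log2 value minus the median of all probe sets on the same array, with genes grouped by channel class on the y axis; points are means and bars the SD over 6 mice. Kcna4, Kcnmb1, Kcnma1, Kcnj8, Kcnj3, Kcnk6, Kcnab1, Kcnt2 and Kcnh2 are named to the right of the median line, while 45 of the 89 genes lie at or left of it.

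Kcnmb1, the smooth muscle auxiliary subunit that raises the calcium sensitivity of the BK channel, lay 4.37 log2 units above the array median, and Kcnma1, its pore-forming subunit, 2.39 above. Kcnmb2, Kcnmb3 and Kcnmb4, the other beta subunits, lay below the median in every vehicle mouse on their own probe sets, but a probe set naming Kcnmb4 together with Kcnmb4os1 lay above it, from 4.995 to 5.41 in vehicle. Kcnt2, a sodium-activated channel of the same superfamily, lay 1.46 above it, while Kcnt1 lay 0.26 below. Among inward rectifiers, Kcnj8, the vascular pore of the ATP-sensitive channel, lay 2.22 above the median and Kcnj11, the alternative pore, 0.83 above. Kcnj2, a strong inward rectifier, lay 0.83 below, above the median in 0 of 6 mice. Kcnk6, a tandem-pore channel, lay 1.99 above, Kcnk2, the mechanically gated TREK-1, 0.81 above, and Kcnk4, its relative, 0.79 above. Among Kv channels, Kcna1, Kcna2, Kcna5 and Kcna6 lay between 0.48 and 0.94 above, and Kcns3, a silent subunit that assembles with Shab channels, 0.91 above. Kcnh2, the ERG channel of cardiac repolarization, was alone in its class above the median, at 1.39. Kcnq1 and Kcnq5, whose channels carry M-type and related currents in arteries, lay 0.44 and 0.68 above. Kcnn1 and Kcnn3, SK channels, and Kcnn4, the intermediate-conductance channel of endothelium, lay 0.93, 0.43 and 0.29 above. Kcnq1ot1, the long noncoding antisense transcript of the Kcnq1 locus, lay 1.03 above.

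The sequences upstream of 3 of these genes are shown: Kcnmb1 for the smooth muscle channel, and Kcnj5 and Kcnd2 for subunits of cardiac currents. Kcnj5 and Kcnd2 had lower means in CM-695 mice, but neither had an adjusted p under 0.05 (0.261 and 0.396 by limma). No result below rests on these sequences, and their part in any difference was not tested. They are RefSeq sequences of the mouse build GRCm38.p6, from the gene's strand, each ending at the base before the gene's outermost start. Capitals mark the GC box GGGCGG, searched on both strands.
Kcnmb1: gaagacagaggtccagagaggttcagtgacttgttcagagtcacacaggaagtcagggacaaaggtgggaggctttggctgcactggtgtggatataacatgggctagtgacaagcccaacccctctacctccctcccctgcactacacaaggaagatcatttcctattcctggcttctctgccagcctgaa
Kcnj5: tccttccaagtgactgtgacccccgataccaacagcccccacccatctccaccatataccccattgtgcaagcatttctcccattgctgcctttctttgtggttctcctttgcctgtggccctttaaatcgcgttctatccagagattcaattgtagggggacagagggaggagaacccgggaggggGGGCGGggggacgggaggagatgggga
Kcnd2: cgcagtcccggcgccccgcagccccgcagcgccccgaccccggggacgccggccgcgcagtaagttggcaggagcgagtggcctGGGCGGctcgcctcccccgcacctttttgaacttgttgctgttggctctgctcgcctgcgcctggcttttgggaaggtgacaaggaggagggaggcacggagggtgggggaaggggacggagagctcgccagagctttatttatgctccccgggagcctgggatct
The Kcnmb1 stretch (plus strand, chr11:33962763-33962954) held no GC box and 0 CpG dinucleotides in 192 bases. The Kcnj5 stretch (minus strand, chr9:32344381-32344594) held 1 GC box and 6 CpG in 214 bases, and the Kcnd2 stretch (plus strand, chr6:21215096-21215345) 1 GC box and 22 CpG in 250 bases. Over the windows of 250 bases before a start, the GC box was found in 44.7% of 94 windows of 69 of these genes, against 32.7% of 32851 windows of all genes. The E-box CACGTG was found in 6.38% against 6.02%. The CArG box, the motif of serum response factor in smooth muscle promoters, was found in 0 of the 94 windows against 1.47% of all, and the cyclic AMP response element TGACGTCA in 0 against 1.55%, which says only that these letters are not in these windows.

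No potassium channel gene passed the threshold between CM-695 and vehicle. In limma's fit of all probe sets, 0 of 89 genes had an adjusted p under 0.05 (0.167% of all genes did), with 0.0225% of all genes passing with the higher mean in CM-695 and 0.144% with the lower. The 6 values of one group stood clear of the 6 of the other for 0 of the 89 genes, against 1.08% of all genes (0.442% higher in CM-695, 0.636% lower). At an unadjusted p under 0.05 there were 9 (10.1%, against 9.10% of all genes), 3 with the higher mean in CM-695 (4.96% of all genes) and 6 with the lower (4.14%). The median difference over the 89 genes was 0.04 and over all genes 0.02. Of the 89, 75 had a difference within 0.25 log2 units of 0 and 4 one over 0.5, Kcnj3, Kcnip2, Kcnj5 and Kcnma1 (4.49%, against 2.3% of all genes). For 85 genes the 95% interval of the difference lay within 1 log2 unit of 0, and for 63 within 0.5. By class, medians ran from -0.15 for the 2 noncoding transcripts and -0.05 for inward rectifiers to 0.13 for tandem-pore channels, of which 11 of 13 had a difference above 0. Of all 22180 genes, 12267 had a difference above 0.

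**Figure D2:**
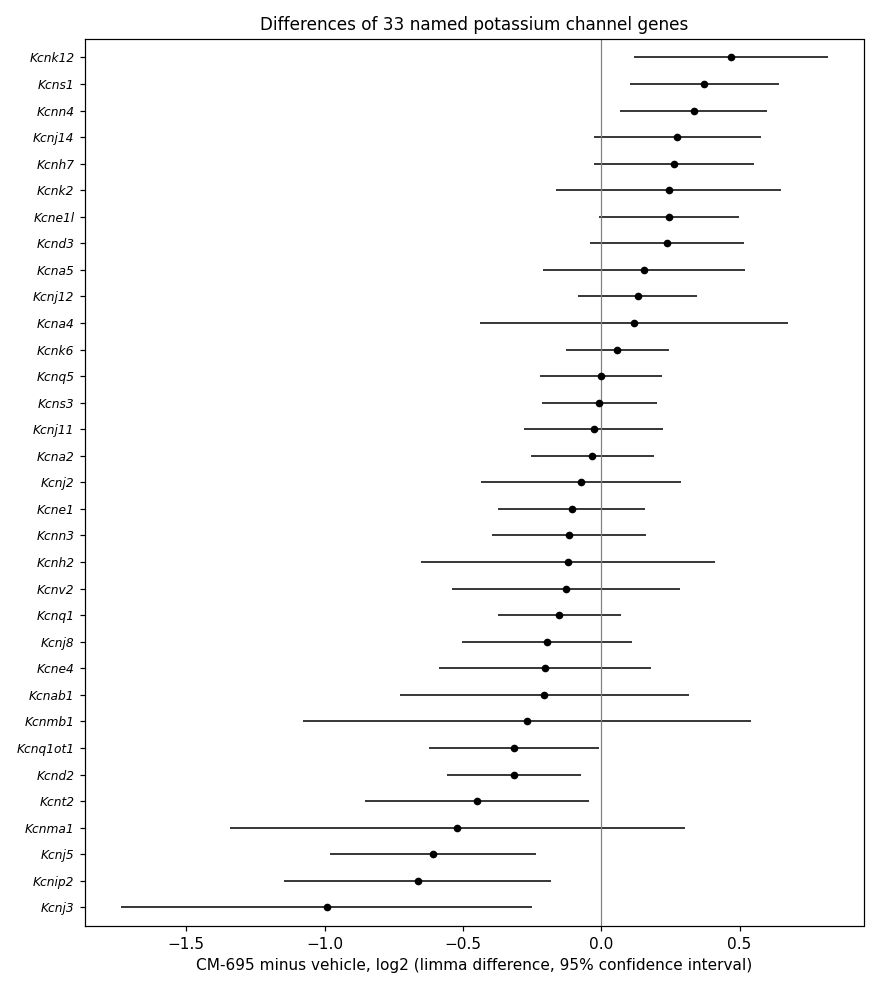
Difference between CM-695 and vehicle on the x axis (log2, points) with its 95% interval (bars), for 33 potassium channel genes named on the y axis, from limma's fit over 6 mice per group. The intervals of Kcnj3, Kcnj5, Kcnip2, Kcnd2, Kcnt2 and Kcnq1ot1 lie below 0 and those of Kcns1, Kcnk12 and Kcnn4 above it, but none of these genes passed the threshold after adjustment.

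The lowest difference was that of Kcnj3, followed by Kcnip2 and Kcnj5, all genes of cardiac currents, and then by Kcnma1 and Kcnt2. Of 14 measured genes on a list of 16 cardiac potassium channels, 10 had a difference below 0, with a median over the list of -0.11. Of all 22180 genes, 9913 had a difference below 0. An unadjusted p under 0.05 with the lower mean was found for 4 of the 14, against 4.14% of all genes. Kcnj3 and Kcnj5 encode the subunits of the acetylcholine-gated inward rectifier of atrial muscle. Kcnj3 ran from 5.33 through a median of 6.87 to 7.59 in vehicle mice and from 5.12 through 5.64 to 6.59 in CM-695 mice, a difference of -0.99 (SE 0.35, 95% interval -1.74 to -0.25, unadjusted p = 0.0127 and adjusted p = 0.384 by limma). All 6 treated mice lay below the vehicle median, but only 1 lay below the lowest vehicle mouse. Kcnj5 ran from 4.61 through 4.92 to 5.46 in vehicle and from 4.11 through 4.20 to 4.80 in CM-695, a difference of -0.61 (SE 0.17, 95% interval -0.98 to -0.24, adjusted p = 0.261), with 4 of 6 treated mice below every vehicle mouse. In vehicle mice, Kcnj5 lay 0.25 above the array median on average. It lay above that median in 4 of 6 vehicle mice and 1 of 6 CM-695 mice. Kcnip2, the cytoplasmic partner of Kv4 channels in the cardiac transient outward current, ran from 3.96 through 4.40 to 5.30 in vehicle and from 3.66 through 3.89 to 4.26 in CM-695, a difference of -0.66 (SE 0.22, adjusted p = 0.365). Its level lay 0.14 below the array median in vehicle mice. Kcnd2, a Kv4 pore subunit, ran from 4.81 through 5.13 to 5.29 in vehicle and from 4.54 through 4.75 to 5.04 in CM-695, a difference of -0.32 (SE 0.11, adjusted p = 0.396), with 4 of 6 treated mice below all vehicle mice. In vehicle mice, Kcnd2 lay 0.35 above the array median on average. It lay above that median in 6 of 6 vehicle mice and 3 of 6 CM-695 mice. Kcnd3, another Kv4 pore subunit, had a difference of 0.24 (SE 0.13). The remaining cardiac genes with a difference below 0 were closer to it, among them Kcnq1 at -0.15 (SE 0.10), Kcnh2 at -0.12 (SE 0.25) and Kcne1, an auxiliary subunit of Kcnq1, at -0.11 (SE 0.12).

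Cardiac muscle markers also had lower means in CM-695. The mean of 11 cardiac markers ran from 7.53 through 8.88 to 9.61 in vehicle mice and from 6.02 through 7.49 to 8.71 in CM-695 mice. All 11 had a difference below 0, with a median of -1.68. Of these, 10 had an unadjusted p under 0.05, against 4.14% of all genes with the lower mean, while 0 passed the adjusted threshold. With this mean as a covariate in the fit, the difference of Kcnj3 was 0.02 (SE 0.23), that of Kcnj5 -0.26 (SE 0.19), that of Kcnip2 -0.22 (SE 0.25) and that of Kcnd2 -0.11 (SE 0.13). The cardiac mean itself differed by -1.49 between CM-695 and vehicle, so this fit cannot separate it from the treatment. After each group's mean was removed, Kcnj3 followed the cardiac mean over the 12 mice (Pearson's r = 0.903, Spearman's rho = 0.902, permutation p = 1e-05, the smallest the permutations can give, and 2e-05). It was the only one of the 89 genes to pass in both measures for cardiac markers after adjustment over 267 relations of genes and marker means (adjusted p = 0.00267 and 0.00534). Without the 2 mice farthest from the median cardiac mean, r was 0.855. Within the vehicle mice r was 0.956 and within the CM-695 mice 0.961. The values for Kcnd2 (r = 0.698, adjusted permutation p = 0.174), Kcnj5 (r = 0.652, adjusted permutation p = 0.28) and Kcnip2 (r = 0.624, adjusted permutation p = 0.136) missed the threshold. Also on the cardiac list, Kcnh2 (r = -0.037) and Kcne1 (r = -0.095) missed the threshold too. Kcnj5 ran against the smooth muscle marker mean at r = -0.743 (rho = -0.720, adjusted permutation p = 0.121 and 0.152), which also missed it, and with that mean as a covariate its difference was -0.71 (SE 0.13, adjusted p = 0.0515). In a whole vessel, fewer cells of a type and less RNA per cell cannot be told apart.

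**Figure D3:**
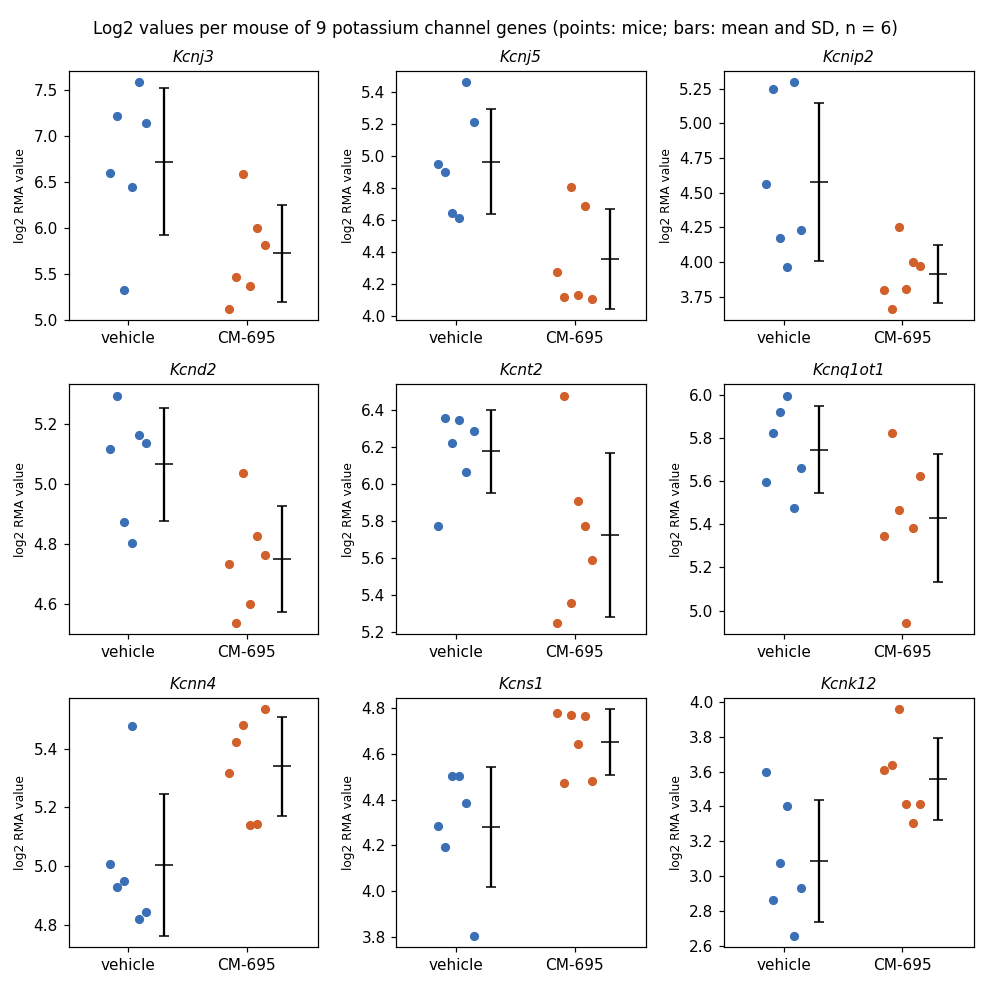
Log2 value on the y axis of 9 potassium channel genes in each mouse, vehicle and CM-695 side by side on the x axis, with points for mice and a line for the group mean. The groups overlap in every panel. Kcnj5, Kcnd2 and Kcnq1ot1 each have 4 of 6 CM-695 mice below all vehicle mice, and Kcns1 has 4 of 6 above all vehicle mice.

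Differences were above 0 for 50 of the 89 genes and below 0 for 39, against 12267 and 9913 of all 22180 genes. With the higher mean in CM-695, 3 had an unadjusted p under 0.05, Kcnn4, Kcns1 and Kcnk12, against 4.96% of all genes. Kcnn4, whose channel hyperpolarizes endothelium, ran from 4.82 through 4.94 to 5.48 in vehicle and from 5.14 through 5.37 to 5.53 in CM-695, a difference of 0.33 (SE 0.12, adjusted p = 0.424). The highest vehicle mouse, mouse 4, lay within the treated range, and all 6 treated mice lay above the vehicle median. The endothelial marker mean ran from 7.44 to 7.83 in vehicle and from 7.50 to 7.83 in CM-695. Single endothelial markers went both ways, 7 of 10 with a difference above 0. An unadjusted p under 0.05 was found for Egfl7 (0.31), Nos3 (0.25) and Emcn (-0.45). The other listed endothelial channels, Kcnn3 and Kcnj2, had differences of -0.12 (SE 0.13) and -0.07 (SE 0.17). Kcns1, a silent Kv subunit of sensory neurons, ran from 3.80 through 4.34 to 4.50 in vehicle and from 4.47 through 4.70 to 4.78 in CM-695, a difference of 0.37 (SE 0.12, adjusted p = 0.363). Kcnk12, a tandem-pore subunit, ran from 2.66 through 3.003 to 3.60 and from 3.30 through 3.51 to 3.96, a difference of 0.47 (SE 0.16, adjusted p = 0.384). Both lay below the array median in every vehicle mouse, where weak signal and none cannot be told apart. The neuron marker mean ran from 4.27 to 5.21 in vehicle and from 4.45 to 6.05 in CM-695, and its part in these differences was not tested. The next genes by unadjusted p, Kcne1l, Kcnj14 and Kcnh7, had differences of 0.24 (SE 0.12), 0.28 (SE 0.14) and 0.26 (SE 0.13), each with an unadjusted limma p over 0.05.

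Channels of arterial smooth muscle did not pass the test. Of the 13 measured genes of that list, 11 had a difference below 0 (median -0.07), against 9913 of all 22180 genes. At an unadjusted p under 0.05 there were 0, against 9.10% of all genes. Of the smooth muscle markers, 9 of 10 had a difference below 0 (median -0.25, 0 at an unadjusted p under 0.05). Of the fibroblast markers it was 10 of 10 (median -0.42). Of these, 4 had an unadjusted p under 0.05, against 4.14% of all genes with the lower mean. The fibroblast mean ran from 8.74 through 9.25 to 9.59 in vehicle and from 8.50 through 8.79 to 9.15 in CM-695. The part of the fibroblast markers in these differences was not tested. Kcnma1 ran from 6.39 through 7.12 to 7.77 in vehicle and from 5.74 through 6.48 to 8.03 in CM-695, a difference of -0.52 (SE 0.38, 95% interval -1.34 to 0.30, adjusted p = 0.724). Treated mice lay on both sides of the vehicle range, 3 below all vehicle mice and 1, mouse 2, above them all. Kcnmb1 ran from 8.41 through 9.08 to 9.85 and from 8.11 through 8.56 to 10.31, a difference of -0.27 (SE 0.38, 95% interval -1.08 to 0.54, adjusted p = 0.868). Without CM-695 mouse 2 the differences were -0.81 for Kcnma1 and -0.57 for Kcnmb1. The interval for Kcnj8 ran from -0.50 to 0.11 around a difference of -0.19 (SE 0.14), and that for Kcna5, a Kv channel of arterial muscle, from -0.21 to 0.52 around 0.15 (SE 0.17). Kcnab1, a Kv beta subunit, had -0.21 (SE 0.24), Kcne4, an auxiliary subunit of KCNQ channels, -0.20 (SE 0.18), Kcnq5 -0.00 (SE 0.10), Kcns3 -0.01 (SE 0.10), Kcna2 -0.03 (SE 0.10) and Kcnj11 -0.03 (SE 0.12). Kcnk6 had 0.06 (SE 0.09). Kcnt2 had a lower mean in CM-695, running from 5.78 through 6.26 to 6.36 in vehicle and from 5.25 through 5.68 to 6.48 in treated mice, a difference of -0.45 (SE 0.19, adjusted p = 0.497). Kcnq1ot1 ran from 5.48 through 5.74 to 6.00 and from 4.94 through 5.42 to 5.82, a difference of -0.31 (SE 0.14, adjusted p = 0.531). For both, 5 of 6 treated mice lay below the vehicle median.

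The BK subunits were among the most variable genes between mice of one group. The SD within groups was 0.75 for Kcnma1, above that of 99.7% of all genes, 0.74 for Kcnmb1 (99.6%) and 0.68 for Kcnj3 (99.3%), while the median over the 89 genes was 0.22, against 0.21 over all genes. Kcnma1 followed the mean of 10 smooth muscle markers over the 12 mice after the group means were removed (r = 0.983, rho = 0.923, adjusted permutation p = 0.0174 and 0.0214), with r = 0.967 without the 2 mice farthest from the median, 0.972 within vehicle and 0.993 within CM-695. For Kcnmb1 r was 0.974 and rho 0.867 (adjusted permutation p = 0.0174 and 0.0467), with 0.951 without those 2 mice. Kcnh2 followed the same mean (r = 0.902, rho = 0.916, adjusted permutation p = 0.0246 and 0.0214; 0.860 without the 2 mice). Kcnk2 ran against it (r = -0.899, rho = -0.928, adjusted permutation p = 0.0307 and 0.0214; -0.794 without the 2 mice). With the adipocyte mean, r was -0.827 for Kcnma1, -0.877 for Kcnmb1, -0.837 for Kcnh2 and 0.884 for Kcnk2, and none of these passed. The smooth muscle mean ran from 8.94 through 9.43 to 9.83 in vehicle and from 8.46 through 8.97 to 10.40 in CM-695. With it as a covariate the difference was -0.21 (SE 0.098) for Kcnma1 and 0.04 for Kcnmb1. Kcnk2 ran from 5.28 through 5.50 to 5.74 in vehicle and from 4.86 through 5.94 to 6.08 in CM-695, a difference of 0.24 (SE 0.19) that was 0.43 (SE 0.11, adjusted p = 0.181) without CM-695 mouse 2, its lowest mouse. These relations were 4 of the 6 that passed in both measures among 267. All share libraries, and the smooth muscle and adipocyte means themselves ran against each other (r = -0.876, rho = -0.797, permutation p = 0.0021 and 0.0037; -0.744 without the 2 farthest mice).

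**Figure D4:**
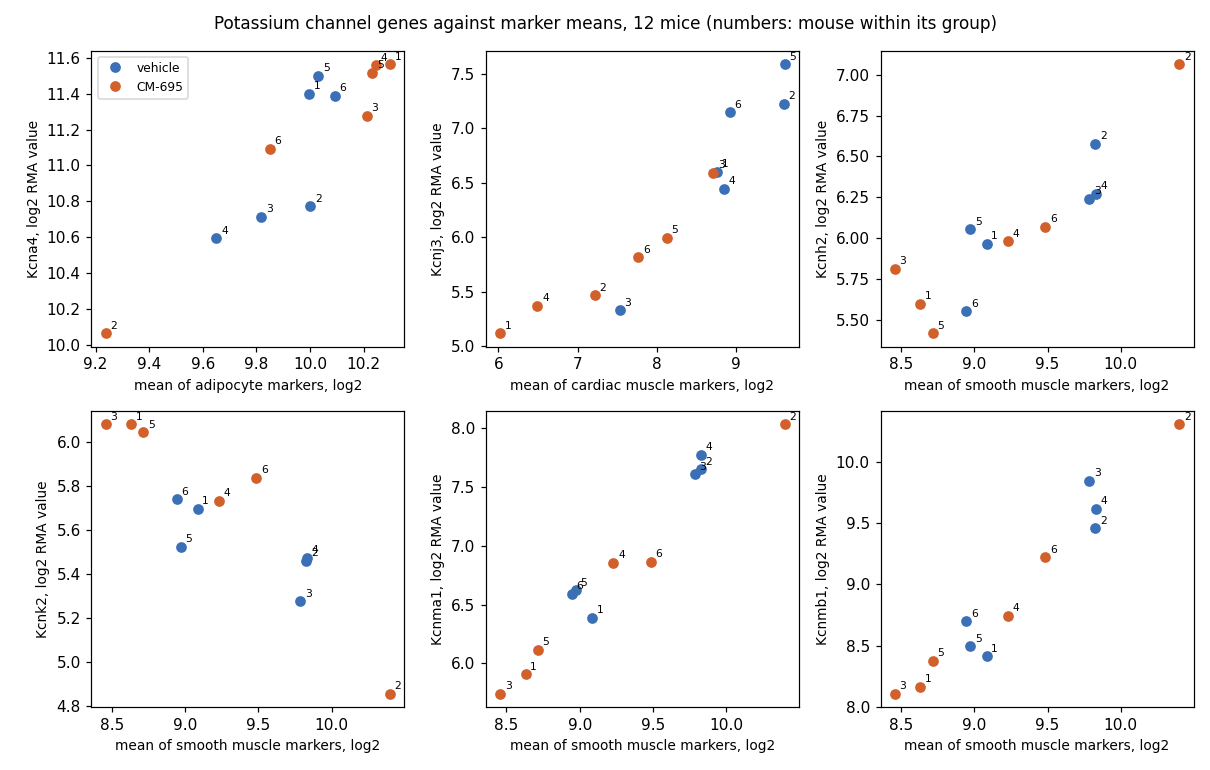
The 6 relations that passed in both measures: log2 value of a potassium channel gene on the y axis against the mean log2 value of a marker list on the x axis, 1 point per mouse, with vehicle and CM-695 mice in different colours. Kcnma1, Kcnmb1 and Kcnh2 lie higher in mice with more smooth muscle marker signal and Kcnk2 lower, while Kcnj3 follows the cardiac markers and Kcna4 the adipocyte markers. Relations that missed the threshold, such as Kcna4 against smooth muscle markers (r = -0.899), are not shown.

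Probe sets of one gene did not always measure alike. The used Kcna4 probe set, for an A-type Kv channel, ran from 10.60 to 11.50 in vehicle mice and its other probe set from 3.47 to 4.22. The used one followed the mean of 8 adipocyte markers over the 12 mice (r = 0.915, rho = 0.769, adjusted permutation p = 0.0174 and 0.0467), with r = 0.702 without the 2 farthest mice. This probe set also ran against the smooth muscle mean (r = -0.899, rho = -0.706, adjusted permutation p = 0.062 and 0.211), which missed the threshold. Its difference was 0.12 (SE 0.26), and that of the other -0.08 (SE 0.13), so the level of Kcna4 depends on which probe set is read. For Kcnq5 the used set gave -0.00 and the dimmer one 0.44 (SE 0.12, unadjusted p = 0.00256 and adjusted p = 0.227 by limma), from 3.23 through 3.55 to 3.76 in vehicle to 3.73 through 3.997 to 4.20 in CM-695. For Kcnma1 the second set lay below the array median, at 4.17 in vehicle, with a difference of 0.12 (SE 0.13). The second Kcnj3 set, at 3.52, had -0.17 (SE 0.12), and the other 3 genes with several sets, Kcna6, Kcnab3 and Kcnmb4, had differences of one sign in each set. Probe sets naming Kcnk3, a tandem-pore channel, together with Gm9899 had values of 8.50 ± 0.36 and 6.75 ± 0.28 (SD, n = 6) in vehicle and differences of -0.02 each, and cannot be assigned to either gene.

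Genes that work with the channels are given from lists. Of 12 listed partners of potassium channels, such as the sulfonylurea receptor Abcc9 (-0.25, SE 0.24), 0 passed the threshold, against 0.167% of all genes. At an unadjusted limma p under 0.05 there were 0, against 9.10% of all genes, and the median difference was 0.01. Of 15 measured genes of smooth muscle calcium entry and release, 12 had a difference below 0 (median -0.11) and 2 an unadjusted p under 0.05. Over all genes, 9913 of 22180 had a difference below 0, and 4.14% an unadjusted p under 0.05 with the lower mean. Trpc1, a cation channel, ran from 5.88 through 6.28 to 6.49 in vehicle and from 5.62 through 5.92 to 6.16 in CM-695, a difference of -0.33 (SE 0.13, adjusted p = 0.447). Ryr2, the ryanodine receptor that also stands among the cardiac markers, ran from 6.78 through 7.54 to 8.25 and from 6.40 through 6.70 to 7.37, a difference of -0.82 (SE 0.25, adjusted p = 0.304). Of 7 measured chloride channel, ion pump and cotransporter genes, 1 had an unadjusted limma p under 0.05, against 9.10% of all genes. This was Slc12a2, the sodium, potassium and chloride cotransporter, with a difference of -0.45 (SE 0.19, adjusted p = 0.516).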

How the data were processed

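The authors deposited log2 expression values of 41345 probe sets on 12 arrays, made with RMA per the submitters' processing notes; its software and version: not given in the sources used here. RMA makes arrays alike in distribution, so an equal shift of all genes cannot be seen. Probe sets were named by the platform annotation (23521 with 1 symbol, 1814 with several, 16010 unnamed here), and all 89 genes matched RefSeq by gene ID. The fit was limma (version 3.58.1, under R 4.3.3) with lmFit and eBayes, group as the only term, two-sided,, with Benjamini-Hochberg adjustment over all probe sets and a threshold of 0.05; the procedure was tested on simulated data. Correlations used values with the group mean removed, 100000 permutations within groups and Benjamini-Hochberg adjustment over 267 relations. Named genes include the 12 with the smallest p, the members of 3 vessel and heart lists, and partner genes with an unadjusted p under 0.05. They also include genes whose probe sets differ in sign, and some, not all, of those above the array median in all 6 vehicle mice. The plot of differences, the alternatives per gene and the check for outlying mice cover 33 of them: the 12 with the smallest p, the members of the 3 lists, and the genes past the correlation test, a criterion added after seeing the data. Members, lists and tests were chosen with earlier results of these data known. Arrays carry no read depth; 6 mice per group limit the precision. Alternatives were the dim filter, normalization, weights, covariates, probe set rule, replicate number and each mouse left out. Some items are not reported here.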

Additional observations from a re-analysis of the deposited data

Results flagged for a closer look

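In 6 cases among 66 groups of 6 mice (33 genes in 2 groups), a mouse lay farther from the others than Dixon's criterion allows; chance alone flags about 1 group in 20. For Kcna4 this was CM-695 mouse 2, at 10.06 against 11.09 to 11.56 in the other treated mice, and for Kcnk2 the same mouse, at 4.86 against 5.73 to 6.08. For Kcnj14 it was CM-695 mouse 3, at 6.01 against 5.71 to 5.76, and for Kcnq1 CM-695 mouse 5, at 5.25 against 4.88 to 5.02. For Kcnn3 it was vehicle mouse 6, at 5.59 against 4.93 to 5.15. For Kcnn4 it was vehicle mouse 4, at 5.48 against 4.82 to 5.01.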

How the results depend on the processing

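The count of potassium channel genes past the adjusted threshold stayed at 0 in every alternative run, and in none did any of the 33 genes followed one by one reach an adjusted p under 0.05. The count at an unadjusted p under 0.05 was 9, and 7 to 12 with a mouse left out; it was 5 of the 45 genes kept when dim probe sets were left out, with a median difference of -0.0009, and 2 with the cardiac marker mean as a covariate. With the 75th percentile in place of the median, 9 genes lay above in vehicle. The replicate numbers do not pair the mice: deviations of same-numbered mice correlated at -0.10 to 0.10, and 1 of 6 vehicle mice correlated best with its own number. With the replicate number as a block, 0 genes passed, 9 had an unadjusted p under 0.05 and the median difference was 0.04. Of these 33 genes, 23 kept the sign of the difference in all alternatives run. With the cardiac mean as a covariate the sign turned for Kcna2 (0.0253), Kcnj2 (0.138), Kcnj3 (0.0242), Kcns3 (0.0365) and Kcnv2 (0.0606). With the smooth muscle mean, an alternative chosen after seeing the data, it turned for Kcna4 (-0.0722), Kcnh2 (0.0616), Kcnmb1 (0.0355) and Kcnq5 (0.0514). Kcnq5 was also 0.0101 after repeated quantile normalization and 0.219 as a mean over probe sets, and Kcns3 0.0061 after quantile normalization and 0.0034 with array weights. With a mouse left out, differences ran from -0.0881 to 0.0151 for Kcna2, from -0.0895 to 0.0495 for Kcnj11, from -0.153 to 0.0364 for Kcnj2, from -0.0476 to 0.0496 for Kcnq5 and from -0.0406 to 0.0581 for Kcns3. The cause of these changes was not tested.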
